A study of Homo sapiens with 12 samples.

Results

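Ribosome biogenesis in Caco-2 cells, an enterocyte-like line derived from a human colorectal tumour, was described through 56 genes of RNA polymerase I transcription, small nucleolar ribonucleoproteins (snoRNPs), the small-subunit processome and large-subunit assembly. The genes were taken from a list of names, and all 56 of them were among the 54553 genes in the tables of the 12 RNA sequencing libraries and among the 18047 that passed a filter on low counts. Cells were kept in 1 of 2 media with 100 nM bafilomycin A1 (BafA1), which blocks the V-ATPase and so keeps lysosomes from becoming acidic, or with vehicle, in 4 groups of 3 libraries. The depleted BafA1 and depleted vehicle groups were kept in DMEM with 0.1 g/L glucose, 0.2 mM glutamine and 1% serum. The rich BafA1 and rich vehicle groups were kept in EMEM with 1 g/L glucose, 2 mM glutamine and 20% serum. Both media held pyruvate, non-essential amino acids and antibiotics, all cells were labelled wild type, and depletion and BafA1 both lasted 48 h. The name of the vehicle and the times of the vehicle and of the rich vehicle culture were not given in the sources used here. The base medium differed together with the nutrients, so an effect of the base medium and one of depletion cannot be told apart.

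A ribosome is built in the nucleolus, where RNA polymerase I transcribes the precursor of the ribosomal RNAs. Box C/D and box H/ACA snoRNPs modify that precursor, the small-subunit processome folds and cleaves its first part, and further factors carry the 40S and 60S particles to the cytoplasm. The process takes up much of the energy and amino acids of a growing cell, and in mammalian cells it is under the control of mTORC1, a kinase complex that is switched on at the lysosome, and of the transcription factor MYC.

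Estimated counts per gene summed to between 12969814 and 51649213 reads a library. Rich vehicle replicate 1 was the shallowest, and the other 11 libraries held at least 33859998 reads. The 56 genes together took 0.462% to 0.538% of the reads in depleted BafA1, 0.426% to 0.433% in depleted vehicle, 0.422% to 0.449% in rich BafA1 and 0.557% to 0.683% in rich vehicle. Rich BafA1 replicate 3 stood apart: its Spearman correlation across genes was 0.985 with both other libraries of its group and 0.985 to 0.990 with the depleted vehicle libraries. All 8 markers of colon epithelium (EPCAM, CDH1, KRT8, KRT18, VIL1, CDX2, HNF4A and FABP1) were above 1 TPM (a read share corrected for gene length) in every library. Their summed level was 1333 to 2021 TPM in depleted BafA1, 2491 to 2627 TPM in depleted vehicle, 2882 to 4191 TPM in rich BafA1 and 4697 to 7550 TPM in rich vehicle. Of the markers of other cell types, PTPRC and CD3E of leukocytes, COL1A2, DCN and LUM of fibroblasts and VWF and KDR of endothelium stayed under 1 TPM in all libraries. Others passed 1 TPM in at least 1 library: CD14 (1.93 to 18.7 TPM), LYZ (0.942 to 7.21 TPM), COL1A1 (3.32 to 9.08 TPM), PDGFRB (0.458 to 4.13 TPM), PECAM1 (0.322 to 4.99 TPM), COL3A1 (highest 1.71 TPM) and CDH5 (highest 1.38 TPM). The 6 fibroblast markers summed to 4.23 to 7.84 TPM in depleted BafA1, 7.24 to 10.3 TPM in depleted vehicle, 7.13 to 8.18 TPM in rich BafA1 and 5.19 to 13.3 TPM in rich vehicle. The 4 endothelial markers summed to 0.57 to 1.39 TPM in depleted BafA1, 2.01 to 2.38 TPM in depleted vehicle, 1.32 to 2.06 TPM in rich BafA1 and 1.58 to 6.46 TPM in rich vehicle. Gene length minus effective length, which is greater for longer fragments, had a median of 176 to 199 bases in depleted BafA1 and 202 to 270 bases in the other libraries. The part of these differences between groups in the results was not tested. Nothing in the labels says that the libraries of a group were separate cultures, and the spread behind the p-values may be technical.

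Promoter sequences from RefSeq (GRCh38.p14), covering 250 bases before to 50 bases after an annotated transcript start, matched 46 of the 56 genes, some with a second window at another start. POLR1E, MPHOSPH10, RRP1B, DCAF13, DDX18, BOP1, RRP12, NOLC1, RRS1 and NOP58 had no entry. The E-box CACGTG, which MYC with MAX and also the TFEB family of lysosomal regulators can bind, was present in the windows of 23 of these 46 genes. It was present in those of 12.2% of the 11097 other tested protein-coding genes with a window. The letters CCGGAAG of ETS factors were found on either strand in 41.3% of the 46 genes and in 21.1% of the others, and the 10-base palindrome of NRF1 in 10.9% and 2.46%. The letters GGGCGG of SP1 were about as frequent in both, at 73.9% and 75.7%. Each motif was counted whether or not it overlapped another one. A match describes letters in the window and no bound factor. The 8 stretches of 30 bases shown here come from the genes with the lowest log2 fold changes in depletion alone among those whose window held 12 bases on each side of the E-box, which that of NOP2 did not, with the E-box in capitals, each 5′ to 3′ on the strand of its gene:
LYAR: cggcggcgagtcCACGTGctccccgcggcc
EBNA1BP2: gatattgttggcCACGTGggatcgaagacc
PNO1: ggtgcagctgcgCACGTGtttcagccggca
UTP20: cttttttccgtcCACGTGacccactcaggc
DDX21: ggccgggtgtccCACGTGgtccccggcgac
MYBBP1A: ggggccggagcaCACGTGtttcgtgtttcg
BYSL: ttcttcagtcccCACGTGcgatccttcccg
RRP9: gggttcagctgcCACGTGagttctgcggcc
On the plus strand lie the stretches of PNO1 (chr2:68157885-68157914), UTP20 (chr12:101280083-101280112), DDX21 (chr10:68956604-68956633) and BYSL (chr6:41921515-41921544). On the minus strand lie those of LYAR (chr4:4290068-4290097), EBNA1BP2 (chr1:43172790-43172819), MYBBP1A (chr17:4555340-4555369) and RRP9 (chr3:51941892-51941921). Distances are counted from the start on which the window was placed, which in LYAR, DDX21 and BYSL lies inside the gene and is not its outermost annotated start. The E-box began 237 bases before that start in EBNA1BP2, 64 before it in LYAR, 31 in DDX21, 10 in UTP20 and 5 in RRP9. It began 9 bases after the start in PNO1, 27 in MYBBP1A and 28 in BYSL. The 2 windows of EBNA1BP2 held a further match, 42 bases after a start. All 8 stretches overlap an annotated exon of at least 1 transcript of their gene.

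Depletion alone lowered most of the genes. In depleted vehicle against rich vehicle, 44 of the 56 genes fell and 3 rose, where 15.4% of all tested genes fell and 15.5% rose (edgeR's quasi-likelihood test with Benjamini-Hochberg adjustment, calls at an adjusted p under 0.05). The median log2 fold change was -0.93 over the 56 genes and 0.04 over all genes. LYAR, BOP1, NOLC1, EBNA1BP2, PNO1, UTP20 and DDX21 had the lowest values, between -2.03 and -1.44. The 3 that rose were WDR74, NOB1 and TAF1D. The 9 genes that were not called were POLR1E, UBTF, UTP14A, NOP14, IMP4, MPHOSPH10, PES1, GNL3 and NPM1. In these bulk samples, fewer cells of a kind and less of an RNA in each cell cannot be told apart. Of the 47 calls, 42 held in all 20 other settings, and those of GAR1, NOP10, RRN3, TAF1D and WDR74 did not. Without rich vehicle replicate 1 or replicate 2, NOB1 alone was called higher.

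**Figure D1:**
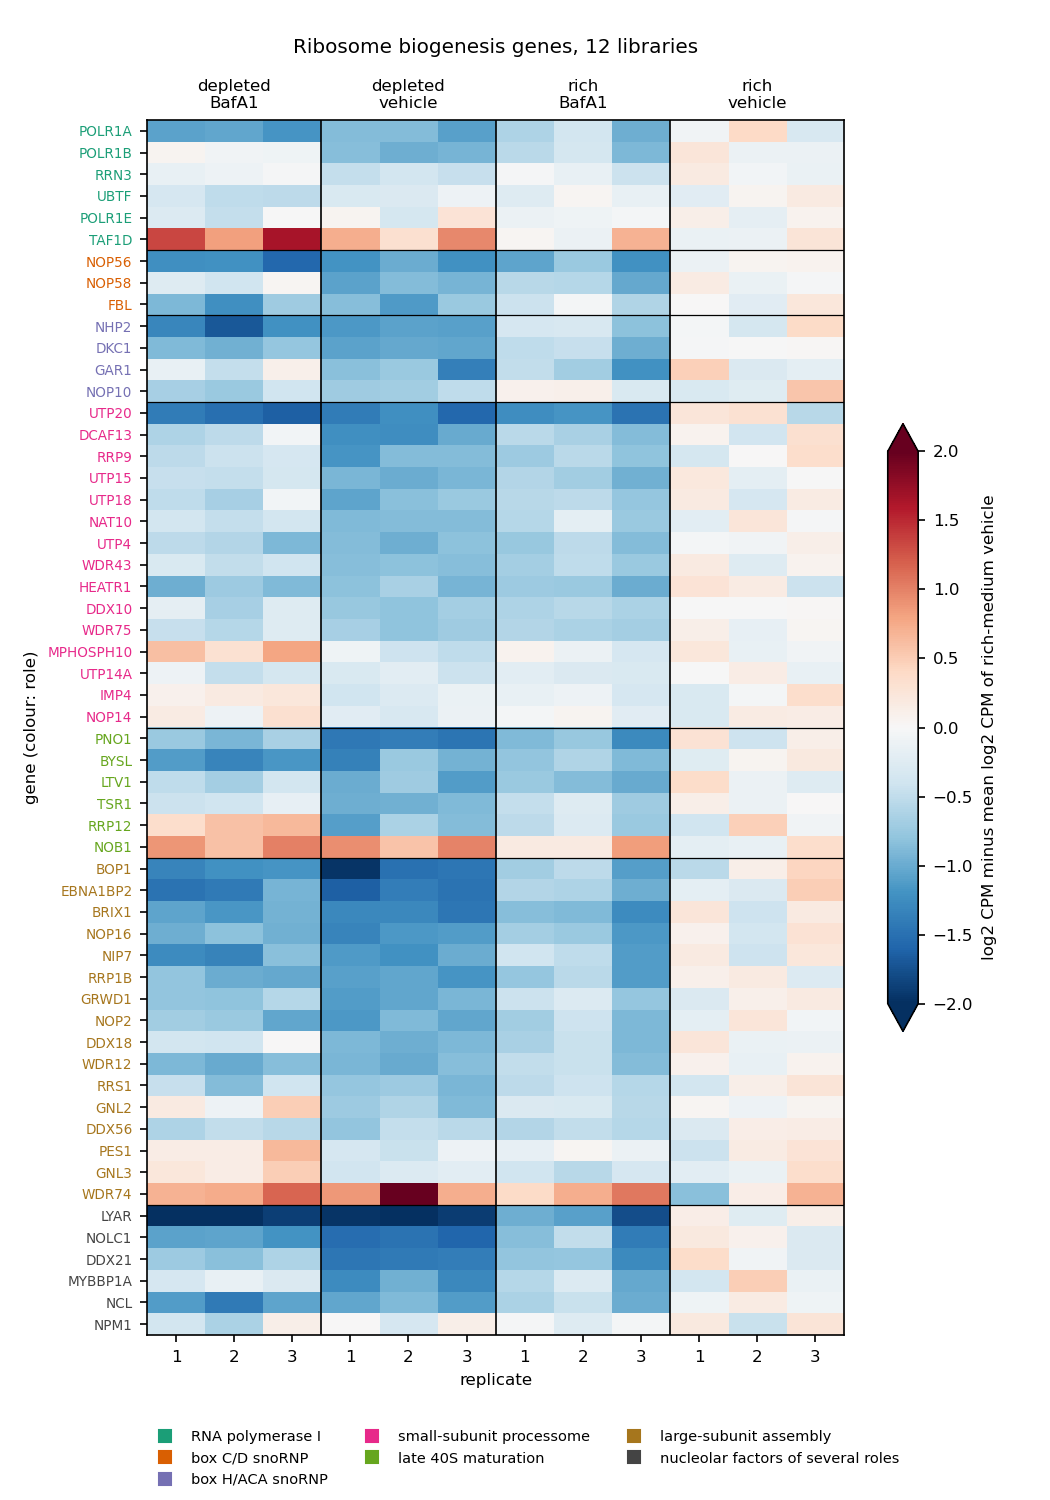
Each row is 1 of the 56 genes, ordered by role and then by response to depletion, and each column is 1 library, with the groups in blocks of 3. Colour gives log2 CPM minus the mean log2 CPM of the rich vehicle libraries, with the scale ending at 2 on both sides. Most rows are blue in depleted vehicle and rich BafA1, paler in depleted BafA1, and TAF1D, NOB1 and WDR74 are red.

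BafA1 in rich medium lowered more than 1 in 2 of the genes. In rich BafA1 against rich vehicle, 32 of the 56 genes fell and none rose, where 4.78% of all tested genes fell and 6.15% rose. The median log2 fold change was -0.63 over the 56 genes and 0.02 over all genes. This comparison and that of depletion alone share the rich vehicle libraries. UTP20 (-1.34), LYAR (-1.24) and BRIX1 (-1.01) had the lowest values, and WDR74 (0.62) and NOB1 (0.41) the highest, which were not called. No gene was higher at an unadjusted p under 0.05 or by DESeq2 (0 in both). The number of genes called lower depended on the libraries: it was 17 without rich BafA1 replicate 1 and 14 without replicate 3, 14 without rich vehicle replicate 1 and rich BafA1 replicate 3 together, and 5 in a fit of these 6 libraries alone. The number called lower over all genes, 862 with all libraries, was 422, 357, 357 and 203 in the same settings. UTP20, NOP56, PNO1, BRIX1 and LYAR kept their calls throughout.

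In depleted medium BafA1 raised genes of the list and lowered none. In depleted BafA1 against depleted vehicle, none of the 56 genes fell and 14 rose, where 5.91% of all tested genes fell and 5.5% rose. The median log2 fold change was 0.30 over the 56 genes and -0.03 over all genes. The 14 genes were RRP12, GNL2, MYBBP1A, MPHOSPH10, POLR1B, DCAF13, NOP58, DDX21, DDX18, PNO1, PES1, TSR1, GNL3 and UTP15. None was lower at an unadjusted p under 0.05 or by DESeq2 (0 in both), which called 19 higher. In 32 of the 56 genes all 3 depleted BafA1 libraries lay above all 3 depleted vehicle libraries, which held for 19.8% of all tested genes. RRP12, GNL2, MPHOSPH10 and POLR1B kept their calls in all 20 other settings. Leaving out any 1 of the 6 depleted-medium libraries lowered the number of calls to between 4 and 9, with 4 called without depleted vehicle replicate 1. Over all genes 388 were then called higher, against 992 with all libraries.

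The difference between the 2 BafA1 responses was tested as an interaction, that is, the depleted-medium response minus the rich-medium response. It was positive in 51 of the 56 genes, called positive in 30 and called negative in none (0 also at an unadjusted p under 0.05 and by DESeq2), where 2.35% of all tested genes were called positive and 3.83% negative. The median interaction was 0.95 on the log2 scale over the 56 genes and -0.05 over all genes. RRP12 (1.95), PNO1 (1.64), DDX21 (1.64), GAR1 (1.59) and MYBBP1A (1.55) had the highest values, and WDR74 (-1.27) the lowest, which was not called. The call held in all 19 other settings run for it for 17 of the 30 genes: POLR1B, NOP58, DCAF13, UTP15, WDR43, WDR75, RRP9, DDX10, RRP12, PNO1, TSR1, DDX18, GNL2, BRIX1, NOLC1, DDX21 and MYBBP1A. These were also all that remained called without depleted vehicle replicate 1. The rank correlation of gene length with the interaction was 0.197 over the 56 genes and 0.0826 over all tested genes, given because fragments were shorter in depleted BafA1.

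**Figure D2:**
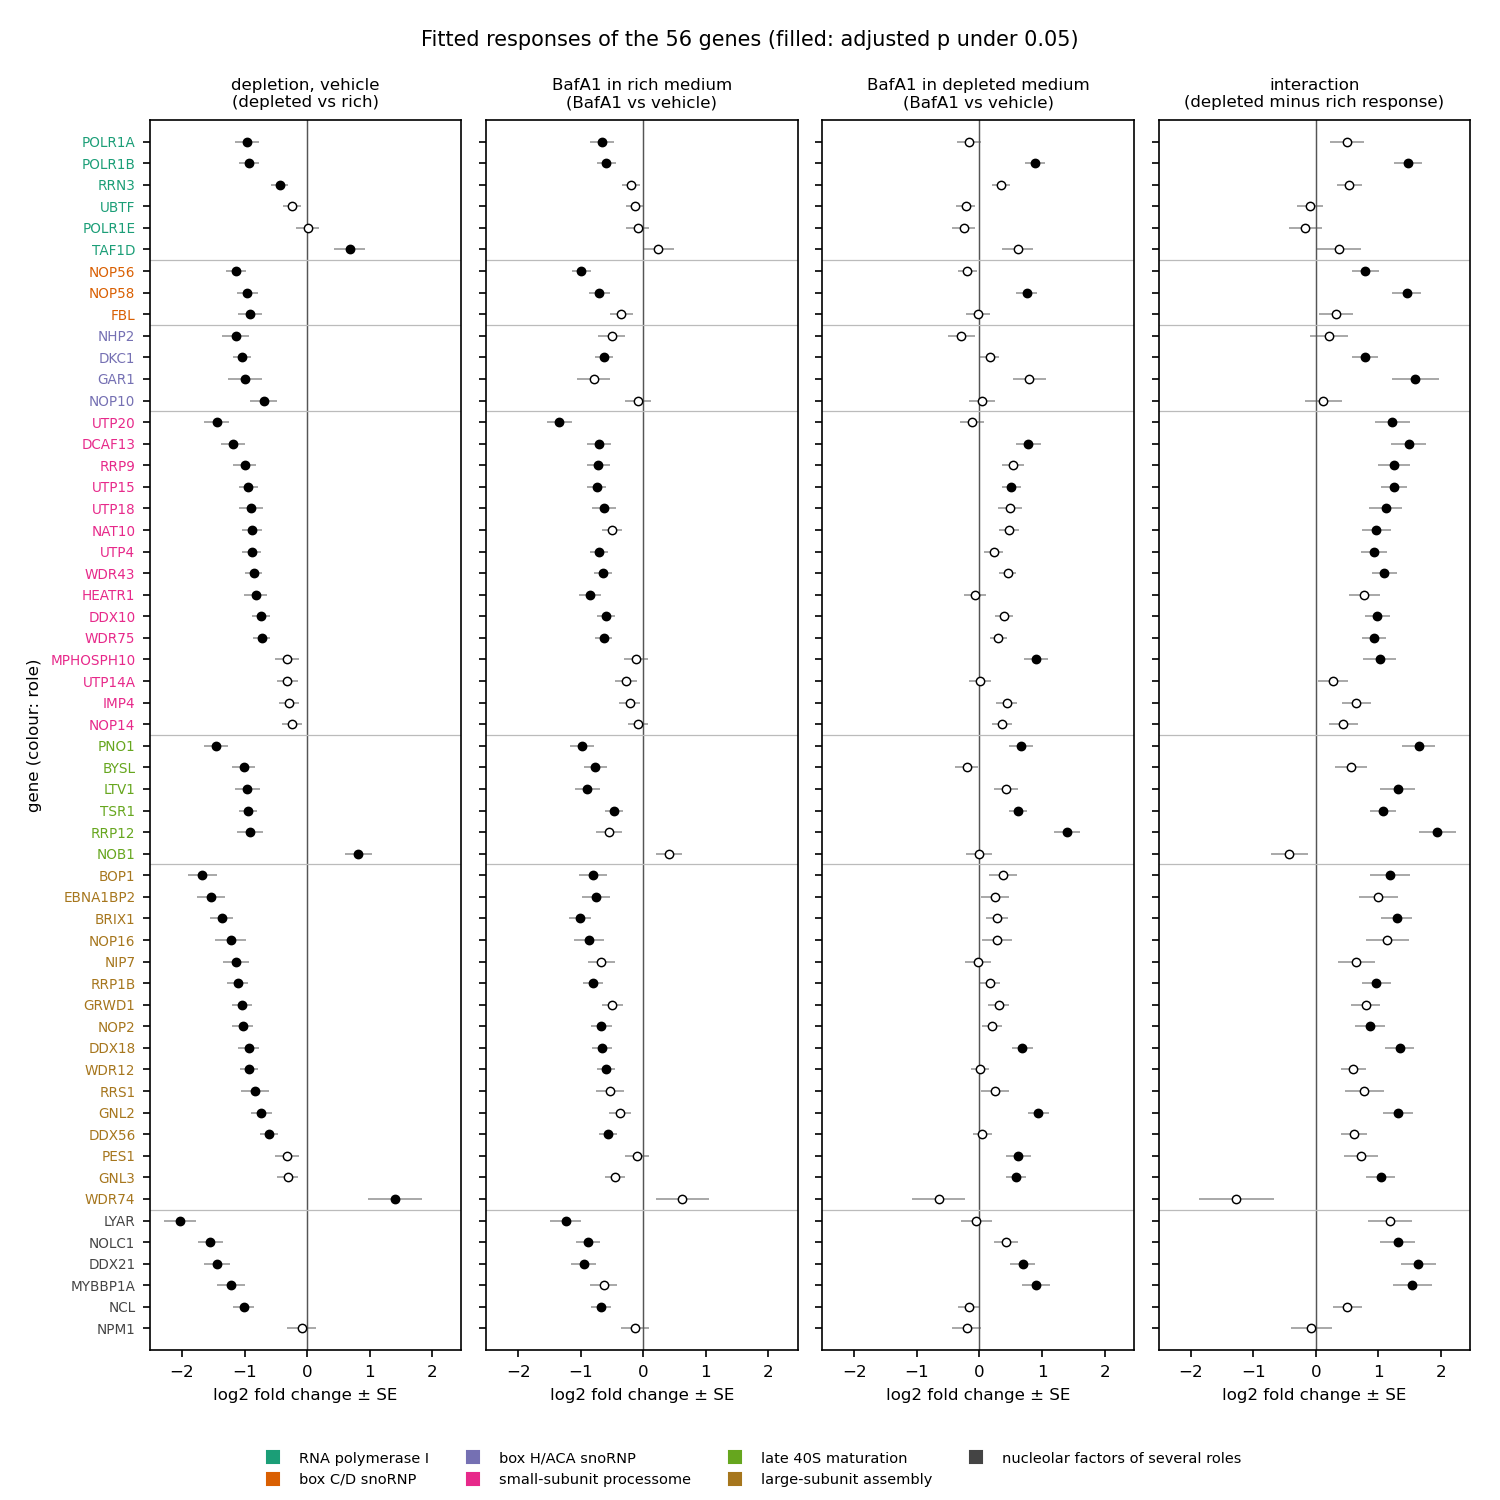
Each row is 1 of the 56 genes and each panel 1 comparison. Points give the fitted log2 fold change, bars its SE, and filled points an adjusted p under 0.05. Points lie mostly left of 0 in depletion and in BafA1 in rich medium, and mostly right of 0 in BafA1 in depleted medium and in the interaction.

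**Figure D3:**
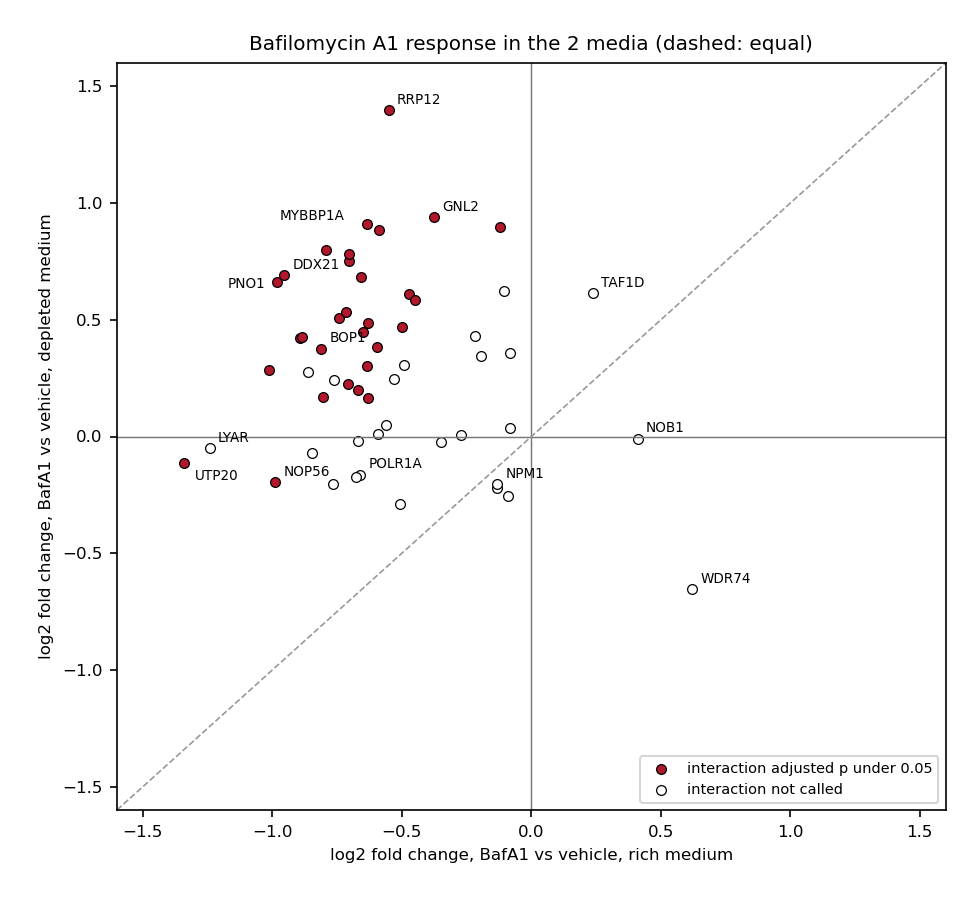
Each point is 1 of the 56 genes, with the log2 fold change of BafA1 over vehicle in rich medium on the x axis and in depleted medium on the y axis, 2 comparisons that share no library. Red points have an interaction with an adjusted p under 0.05 and lie above the dashed line of equal response, and WDR74 is the point farthest below it.

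Genes of the RNA polymerase I machinery fell, rose or were not called. Levels are given as CPM, a read share scaled by the TMM factors of edgeR, for replicates 1 to 3 of each group. POLR1A, its largest subunit, had 84.9, 86.9 and 79.0 CPM in depleted BafA1, 98.4, 98.0 and 84.5 CPM in depleted vehicle, 117, 139 and 90.8 CPM in rich BafA1 and 170.4, 235 and 143 CPM in rich vehicle. All BafA1 and depleted libraries lay below all rich vehicle libraries, and depletion lowered POLR1A (log2 fold change -0.97, SE 0.19, adjusted p = 0.00157), and the 2 depleted groups overlapped. POLR1B, the second-largest subunit, had 91.0, 83.3 and 83.2 CPM in depleted BafA1, 48.5, 44.8 and 45.9 CPM in depleted vehicle, 60.2, 68.9 and 47.3 CPM in rich BafA1 and 104, 80.6 and 81.4 CPM in rich vehicle. The depleted BafA1 libraries lay within the range of rich vehicle: depletion lowered POLR1B (log2 fold change -0.93, SE 0.16, adjusted p = 0.00053), BafA1 in depleted medium raised it (log2 fold change 0.89, SE 0.16, adjusted p = 0.00255), and the interaction was 1.48, SE 0.22, adjusted p = 0.00415. TAF1D, a subunit of the SL1 factor that brings the polymerase to its promoter, had 330.1, 233 and 414 CPM in depleted BafA1, 218, 163 and 257 CPM in depleted vehicle, 135, 121 and 214 CPM in rich BafA1 and 119.7, 121 and 157 CPM in rich vehicle. It was higher in depleted medium both with vehicle (log2 fold change 0.68, SE 0.25, adjusted p = 0.0491) and with BafA1 (log2 fold change 1.06, SE 0.25, adjusted p = 0.00684). The first of these calls was lost in 9 of the 20 other settings, and the second held in all of them. RRN3, which links the polymerase to SL1, fell in depletion (log2 fold change -0.44, SE 0.14, adjusted p = 0.0286), a call lost in 6 of the 20 settings. Copies of RRN3 with pseudogene names held reads equal to 8.82% to 16.7% of its own count, so its level is uncertain. UBTF, the activator bound along the ribosomal DNA, and the polymerase subunit POLR1E were called in none of the single-treatment comparisons, with depletion values of -0.24 and 0.01.

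Of the core proteins of box C/D snoRNPs, which methylate ribosomal RNA, the 3 on the gene list all fell in depletion. NOP56 had 48.7, 49.6 and 38.7 CPM in depleted BafA1, 50.01, 57.5 and 49.4 CPM in depleted vehicle, 55.2, 68.5 and 49.6 CPM in rich BafA1 and 106, 118 and 119.6 CPM in rich vehicle. It was low in every group but rich vehicle, with calls for depletion (log2 fold change -1.13, SE 0.16, adjusted p = 0.000124) and for BafA1 in rich medium (log2 fold change -0.99, SE 0.16, adjusted p = 0.00164). Its partner NOP58 had 63.7, 58.1 and 78.6 CPM in depleted BafA1, 36.5, 42.1 and 40.4 CPM in depleted vehicle, 52.2, 51.4 and 37.6 CPM in rich BafA1 and 85.4, 69.8 and 75.1 CPM in rich vehicle. In NOP58 both depleted groups were apart: depletion lowered it (log2 fold change -0.95, SE 0.17, adjusted p = 0.000644) and BafA1 in depleted medium raised it (log2 fold change 0.75, SE 0.17, adjusted p = 0.00901). The methyltransferase FBL had 47.2, 37.2 and 53.7 CPM in depleted BafA1, 48.4, 39.8 and 52.1 CPM in depleted vehicle, 65.2, 85.1 and 57.7 CPM in rich BafA1 and 88.0, 74.7 and 102 CPM in rich vehicle. FBL fell in depletion with vehicle (log2 fold change -0.92, SE 0.19, adjusted p = 0.0021) and with BafA1 (log2 fold change -0.59, SE 0.19, adjusted p = 0.032), and its interaction of 0.33 was not called.

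The 4 core proteins of box H/ACA snoRNPs, which turn uridine into pseudouridine, fell as well. DKC1, the pseudouridine synthase, had 39.4, 37.3 and 42.7 CPM in depleted BafA1, 34.8, 36.0 and 35.7 CPM in depleted vehicle, 51.1, 53.2 and 37.1 CPM in rich BafA1 and 72.0, 72.4 and 74.3 CPM in rich vehicle. All libraries of the other groups lay below those of rich vehicle, with calls for depletion (log2 fold change -1.04, SE 0.15, adjusted p = 0.000161) and BafA1 in rich medium (log2 fold change -0.63, SE 0.15, adjusted p = 0.0146). NHP2 had 9.64, 7.36 and 10.3 CPM in depleted BafA1, 10.7, 11.4 and 11.3 CPM in depleted vehicle, 18.9, 19.2 and 13.5 CPM in rich BafA1 and 23.3, 18.8 and 31.3 CPM in rich vehicle. It was lowest in depleted BafA1 and fell on depletion under both vehicle (log2 fold change -1.14, SE 0.22, adjusted p = 0.00115) and BafA1 (log2 fold change -0.92, SE 0.21, adjusted p = 0.00615). NOP10 had 29.7, 28.3 and 35.7 CPM in depleted BafA1, 28.9, 29.3 and 33.2 CPM in depleted vehicle, 50.4, 50.8 and 38.3 CPM in rich BafA1 and 38.3, 39.8 and 69.3 CPM in rich vehicle. Depletion lowered NOP10 (log2 fold change -0.69, SE 0.21, adjusted p = 0.0215), but the call was lost in 4 of the 20 other settings. Among these was the fit without rich vehicle replicate 3, the highest library (log2 fold change -0.36). GAR1 had 11.4, 9.13 and 13.5 CPM in depleted BafA1, 7.11, 7.54 and 4.92 CPM in depleted vehicle, 9.05, 7.87 and 5.498 CPM in rich BafA1 and 17.7, 10.4 and 11.1 CPM in rich vehicle. Depleted vehicle and rich BafA1 overlapped at the low end, and GAR1 had an interaction of 1.59, SE 0.38, adjusted p = 0.0248, a call lost in 5 of its 19 other settings.

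**Figure D4:**
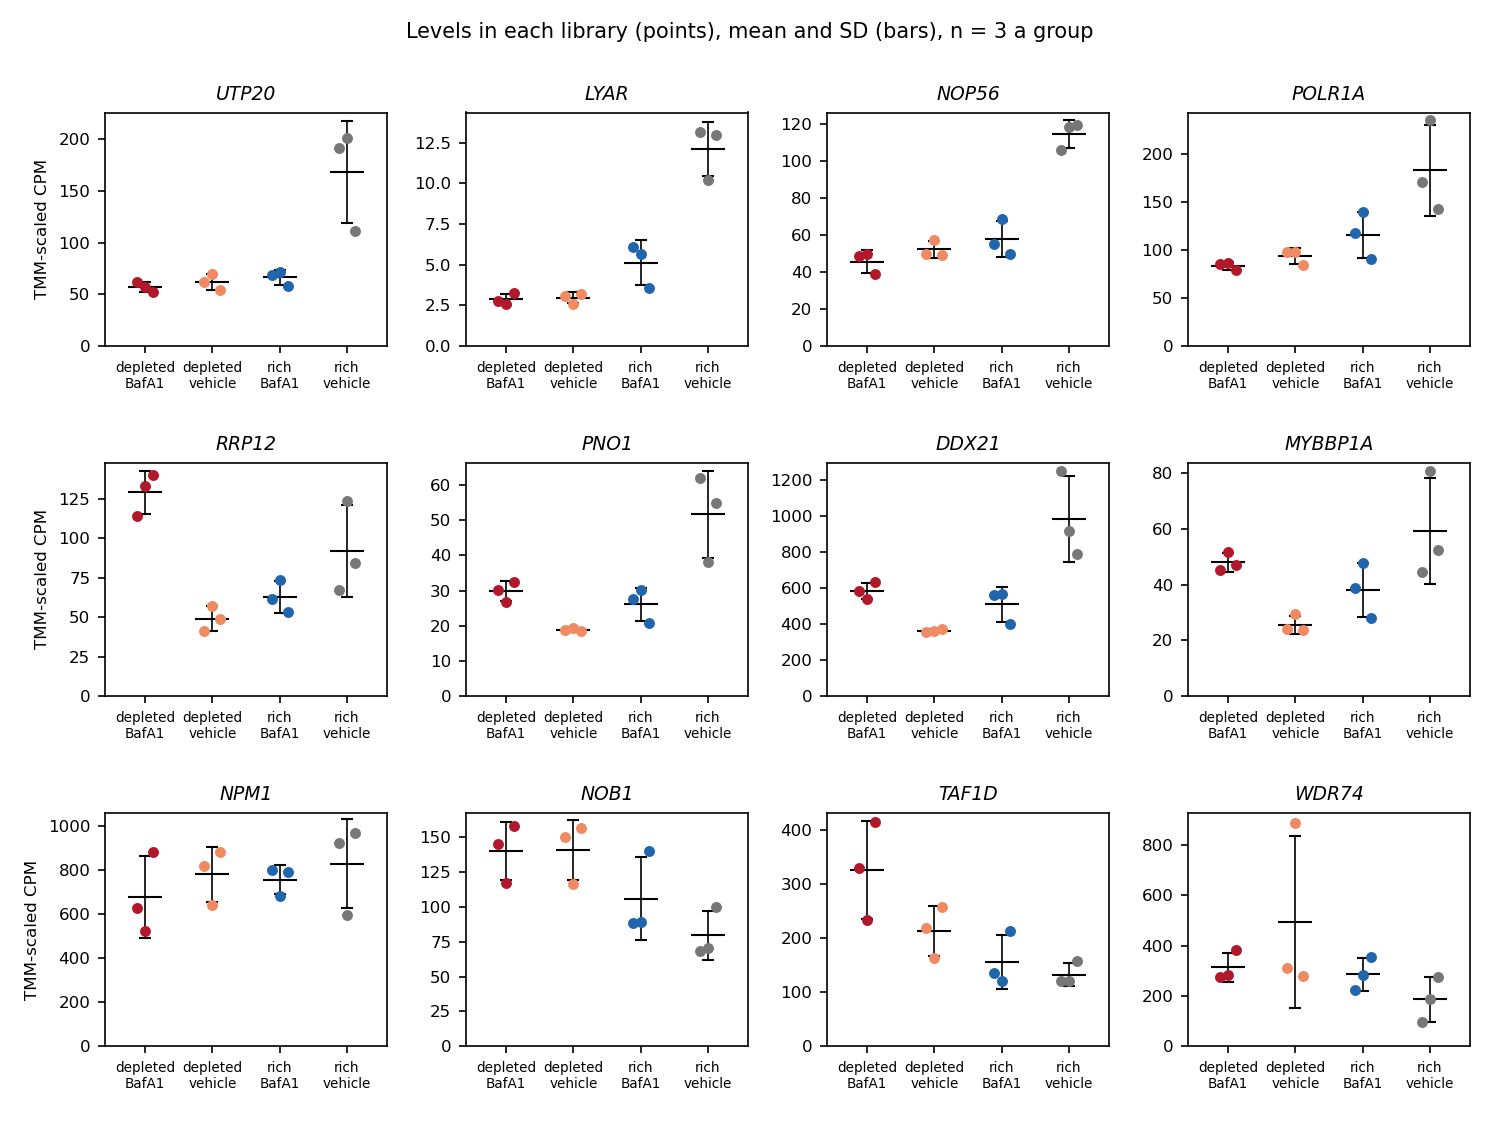
Points give TMM-scaled CPM in each library for 12 of the genes, bars the mean and SD of 3 libraries, with groups in the order depleted BafA1, depleted vehicle, rich BafA1 and rich vehicle. UTP20, LYAR, NOP56 and POLR1A are low in 3 groups, RRP12, PNO1, DDX21 and MYBBP1A are lowest in depleted vehicle, NPM1 overlaps in all groups, and NOB1, TAF1D and WDR74 are lowest on average in rich vehicle.

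Of 15 genes of the small-subunit processome, the particle that forms on the first part of the precursor, 11 fell in depletion and 11 were called in the interaction. UTP20, a large scaffold protein, had 61.6, 57.2 and 52.7 CPM in depleted BafA1, 62.0, 69.3 and 54.6 CPM in depleted vehicle, 69.1, 72.0 and 58.2 CPM in rich BafA1 and 192, 202 and 111 CPM in rich vehicle. The 9 libraries of the 3 treated groups lay between 52.7 and 72.0 CPM, below all rich vehicle libraries, and depletion (log2 fold change -1.44, SE 0.20, adjusted p = 0.00012) and BafA1 in rich medium (log2 fold change -1.34, SE 0.20, adjusted p = 0.00115) both lowered UTP20. DCAF13 had 47.0, 50.5 and 70.0 CPM in depleted BafA1, 30.9, 30.6 and 36.0 CPM in depleted vehicle, 49.7, 46.3 and 39.8 CPM in rich BafA1 and 75.8, 55.2 and 90.5 CPM in rich vehicle. It was lowest in depleted vehicle (log2 fold change -1.19, SE 0.20, adjusted p = 0.000441) and rose with BafA1 there (log2 fold change 0.78, SE 0.19, adjusted p = 0.0174). NOP14 had 45.2, 37.9 and 50.7 CPM in depleted BafA1, 34.7, 32.4 and 37.3 CPM in depleted vehicle, 39.4, 42.3 and 34.8 CPM in rich BafA1 and 32.8, 45.4 and 44.8 CPM in rich vehicle. Its depleted BafA1 libraries lay just above those of depleted vehicle and the other groups overlapped, and NOP14 was called in no comparison, with a depletion value of -0.24.

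UTP4, UTP15, WDR43 and WDR75 are parts of the UTP-A complex, which also acts in transcription of the ribosomal DNA. UTP4 had 108, 103 and 83.2 CPM in depleted BafA1, 85.0, 78.6 and 88.0 CPM in depleted vehicle, 91.7, 108 and 85.2 CPM in rich BafA1 and 151, 147 and 168 CPM in rich vehicle. UTP15 had 37.7, 37.1 and 40.8 CPM in depleted BafA1, 27.6, 26.00 and 27.6 CPM in depleted vehicle, 34.6, 32.1 and 26.5 CPM in rich BafA1 and 59.6, 45.4 and 51.2 CPM in rich vehicle. WDR43 had 98.7, 87.1 and 92.3 CPM in depleted BafA1, 67.4, 68.9 and 67.6 CPM in depleted vehicle, 76.4, 85.8 and 73.1 CPM in rich BafA1 and 139, 102 and 129 CPM in rich vehicle. These 3 genes shared 1 order, with rich vehicle highest and depleted BafA1 on average above depleted vehicle, and their interactions were 0.93, 1.25 and 1.10. WDR75 had 71.5, 65.7 and 82.3 CPM in depleted BafA1, 61.7, 56.3 and 60.1 CPM in depleted vehicle, 65.4, 63.2 and 61.3 CPM in rich BafA1 and 107, 87.9 and 100.4 CPM in rich vehicle. WDR75 also fell in depletion (log2 fold change -0.73, SE 0.14, adjusted p = 0.00101), and its rich vehicle libraries lay above all others. HEATR1, of the same complex, fell in depletion (-0.82) and with BafA1 in rich medium (-0.85) and had an interaction of 0.77 that was not called.

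UTP18, a subunit of the UTP-B complex, had 32.7, 29.3 and 44.7 CPM in depleted BafA1, 22.3, 25.9 and 27.9 CPM in depleted vehicle, 31.6, 32.3 and 27.2 CPM in rich BafA1 and 52.5, 36.6 and 52.2 CPM in rich vehicle. RRP9, which binds the U3 small nucleolar RNA, had 30.4, 32.3 and 34.4 CPM in depleted BafA1, 19.2, 23.9 and 24.0 CPM in depleted vehicle, 26.4, 30.1 and 25.1 CPM in rich BafA1 and 34.1, 43.9 and 55.8 CPM in rich vehicle. Both fell in depletion (-0.89 and -0.998) and were called in the interaction (1.12 and 1.25). NAT10, an acetyltransferase of 18S ribosomal RNA, had 107, 98.3 and 106 CPM in depleted BafA1, 74.8, 74.9 and 75.0 CPM in depleted vehicle, 92.1, 119.9 and 81.9 CPM in rich BafA1 and 118, 162 and 135 CPM in rich vehicle. DDX10, a helicase, had 58.7, 42.0 and 55.8 CPM in depleted BafA1, 39.6, 38.3 and 41.8 CPM in depleted vehicle, 43.6, 45.7 and 43.2 CPM in rich BafA1 and 66.2, 66.5 and 67.7 CPM in rich vehicle. Depletion lowered NAT10 (log2 fold change -0.89, SE 0.16, adjusted p = 0.000862) and DDX10 (log2 fold change -0.74, SE 0.14, adjusted p = 0.0013), with every depleted vehicle library below every rich vehicle library. MPHOSPH10, of the complex that binds the U3 RNA with IMP4, had 26.5, 21.7 and 30.2 CPM in depleted BafA1, 16.6, 13.1 and 12.3 CPM in depleted vehicle, 18.4, 16.2 and 13.8 CPM in rich BafA1 and 20.4, 15.8 and 16.6 CPM in rich vehicle. Its depleted BafA1 libraries lay above all others: depletion did not change MPHOSPH10 past the threshold (-0.33), and BafA1 in depleted medium raised it (log2 fold change 0.90, SE 0.19, adjusted p = 0.0071). IMP4 and UTP14A were called in no single-treatment comparison, at depletion values of -0.29 and -0.32.

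Late steps of 40S maturation held the gene with the highest interaction. RRP12, needed in yeast and human cells for the 40S precursor to mature and leave the nucleus, had 114, 133 and 140.3 CPM in depleted BafA1, 41.4, 57.2 and 48.6 CPM in depleted vehicle, 61.6, 73.5 and 53.4 CPM in rich BafA1 and 67.4, 124 and 84.5 CPM in rich vehicle. Depleted BafA1 was above depleted vehicle and rich BafA1 in every library. Depletion lowered RRP12 (log2 fold change -0.91, SE 0.21, adjusted p = 0.0041), BafA1 in depleted medium raised it (log2 fold change 1.40, SE 0.21, adjusted p = 0.000891), and the interaction was 1.95, SE 0.29, adjusted p = 0.00415. PNO1, the partner that positions the NOB1 nuclease, had 30.1, 26.8 and 32.5 CPM in depleted BafA1, 18.7, 19.3 and 18.4 CPM in depleted vehicle, 27.5, 30.0 and 20.9 CPM in rich BafA1 and 62.1, 38.0 and 55.0 CPM in rich vehicle. Its groups fell in 3 steps, with rich vehicle on top, depleted BafA1 and rich BafA1 in the middle and depleted vehicle lowest, and depletion had a log2 fold change of -1.46, SE 0.19, adjusted p = 9.18e-05. NOB1, the endonuclease that makes the 3′ end of 18S ribosomal RNA, had 145, 117 and 158 CPM in depleted BafA1, 150.2, 116 and 156 CPM in depleted vehicle, 88.5, 89.1 and 140.5 CPM in rich BafA1 and 68.5, 70.7 and 99.8 CPM in rich vehicle. NOB1 rose in depletion (log2 fold change 0.82, SE 0.21, adjusted p = 0.00846) while PNO1 fell, and the 2 depleted groups of NOB1 did not differ past the threshold (log2 fold change -0.01, SE 0.21, adjusted p = 0.985).

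TSR1, an assembly factor related to translational GTPases, had 82.4, 83.9 and 98.3 CPM in depleted BafA1, 56.6, 57.0 and 59.9 CPM in depleted vehicle, 79.5, 92.9 and 67.6 CPM in rich BafA1 and 120.0, 102 and 111 CPM in rich vehicle. LTV1 had 14.5, 12.94 and 15.9 CPM in depleted BafA1, 10.3, 12.6 and 9.52 CPM in depleted vehicle, 12.3, 11.3 and 10.2 CPM in rich BafA1 and 26.7, 19.0 and 17.3 CPM in rich vehicle. Both fell in depletion (-0.94 and -0.95) and had called interactions (1.08 and 1.31). BYSL had 16.6, 14.4 and 16.1 CPM in depleted BafA1, 14.1, 21.5 and 18.8 CPM in depleted vehicle, 20.8, 23.9 and 19.6 CPM in rich BafA1 and 30.4, 37.5 and 41.2 CPM in rich vehicle. In BYSL all depleted libraries lay below all rich vehicle libraries (log2 fold change -1.01, SE 0.18, adjusted p = 0.000878), and BafA1 made no called difference in depleted medium (-0.20).

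Of 16 genes of large-subunit assembly, 13 fell in depletion, and WDR74 rose. BOP1, a member of the complex with PES1 and WDR12 that processes the 60S precursor, had 27.6, 30.0 and 30.5 CPM in depleted BafA1, 17.8, 24.7 and 25.5 CPM in depleted vehicle, 42.8, 48.2 and 32.4 CPM in rich BafA1 and 47.6, 75.2 and 93.2 CPM in rich vehicle. Depletion lowered BOP1 (log2 fold change -1.67, SE 0.23, adjusted p = 0.000116) more than BafA1 in rich medium did (log2 fold change -0.81, SE 0.22, adjusted p = 0.0311). The difference between these 2 treatments was itself called (log2 fold change 0.86, SE 0.22, adjusted p = 0.0442), the only such call among the 56 genes. PES1 had 105, 105 and 149 CPM in depleted BafA1, 75.0, 69.7 and 88.6 CPM in depleted vehicle, 84.8, 97.8 and 87.5 CPM in rich BafA1 and 70.0, 106 and 115 CPM in rich vehicle. PES1 was not called in depletion (-0.32) and rose with BafA1 in depleted medium (log2 fold change 0.62, SE 0.19, adjusted p = 0.0491), a call lost in 9 of the 20 other settings, and its interaction (0.73) was not called. Without rich vehicle replicate 1, PES1 was called lower in depletion and positive in the interaction. WDR12, the other partner, fell in depletion (-0.93) and with BafA1 in rich medium (-0.59).

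EBNA1BP2 had 10.2, 10.6 and 14.9 CPM in depleted BafA1, 9.14, 10.8 and 10.2 CPM in depleted vehicle, 18.9, 18.3 and 14.4 CPM in rich BafA1 and 24.7, 23.0 and 39.5 CPM in rich vehicle. All depleted libraries were below all rich BafA1 and rich vehicle libraries but for 1 depleted BafA1 library that passed the lowest rich BafA1 library, and depletion gave log2 fold change -1.54, SE 0.23, adjusted p = 0.000199. BRIX1, which helps fold the 60S precursor, had 36.9, 34.1 and 39.5 CPM in depleted BafA1, 31.3, 31.4 and 28.1 CPM in depleted vehicle, 42.3, 41.6 and 31.95 CPM in rich BafA1 and 90.6, 57.4 and 86.2 CPM in rich vehicle. RRP1B had 89.9, 77.7 and 76.1 CPM in depleted BafA1, 72.7, 75.7 and 68.7 CPM in depleted vehicle, 90.8, 106 and 71.6 CPM in rich BafA1 and 166, 175 and 128 CPM in rich vehicle. NOP2, a methyltransferase of 28S ribosomal RNA, had 73.7, 71.0 and 57.8 CPM in depleted BafA1, 53.9, 64.6 and 58.0 CPM in depleted vehicle, 73.7, 89.0 and 63.8 CPM in rich BafA1 and 104, 141 and 115 CPM in rich vehicle. BRIX1, RRP1B and NOP2 fell in depletion (-1.36, -1.11 and -1.03) and with BafA1 in rich medium (-1.01, -0.80 and -0.67). DDX18, a helicase, had 138, 136 and 179 CPM in depleted BafA1, 95.7, 91.1 and 96.1 CPM in depleted vehicle, 114, 132 and 95.8 CPM in rich BafA1 and 212, 164 and 165 CPM in rich vehicle. GNL2 and GNL3 are nucleolar GTPases, and GNL3 is also known as nucleostemin. GNL2 had 30.0, 24.6 and 36.8 CPM in depleted BafA1, 15.9, 17.4 and 14.3 CPM in depleted vehicle, 21.6, 21.4 and 17.95 CPM in rich BafA1 and 27.0, 24.6 and 27.3 CPM in rich vehicle. GNL3 had 97.1, 91.7 and 117 CPM in depleted BafA1, 63.6, 68.2 and 71.6 CPM in depleted vehicle, 62.8, 56.4 and 65.4 CPM in rich BafA1 and 71.6, 75.4 and 105 CPM in rich vehicle. BafA1 in depleted medium raised DDX18 (log2 fold change 0.68, SE 0.17, adjusted p = 0.0154), GNL2 (log2 fold change 0.94, SE 0.17, adjusted p = 0.00316) and GNL3 (log2 fold change 0.59, SE 0.16, adjusted p = 0.0297). In GNL3 the depleted BafA1 libraries were also above those of rich BafA1, and depletion under BafA1 raised it (log2 fold change 0.73, SE 0.16, adjusted p = 0.00485). NOP16, RRS1, DDX56, GRWD1 and NIP7 fell in depletion by log2 values between -1.22 and -0.61, and none of them was called in the interaction.

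WDR74, which works with the ATPase that releases factors from the 60S precursor, had 275, 285 and 381 CPM in depleted BafA1, 311, 888 and 280.5 CPM in depleted vehicle, 222, 282 and 354 CPM in rich BafA1 and 95.7, 187 and 275 CPM in rich vehicle. Depleted vehicle replicate 2 was far above all other libraries, and the depletion value of 1.41, SE 0.43, adjusted p = 0.0246 was 0.67 with an adjusted p of 0.152 without it. The span of WDR74 (chromosome 11, 62832905 to 62841809, minus strand, GRCh38.p14) holds the small nuclear RNA gene RNU2-2P on the same strand. RNU2-2P had 63.7, 67.9 and 87.1 CPM in depleted BafA1, 55.4, 165 and 48.5 CPM in depleted vehicle, 37.6, 48.8 and 65.2 CPM in rich BafA1 and 21.0, 35.6 and 53.6 CPM in rich vehicle. Its highest library was the same as that of WDR74. By edgeR's test RNU2-2P was also called higher in depletion (log2 fold change 1.28, SE 0.45, adjusted p = 0.0497). Reads of the 2 genes may not have been separable in counting, which was not tested.

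Nucleolar proteins with several roles held the gene with the largest fall. LYAR, a nucleolar regulator of cell growth, had 2.76, 2.58 and 3.25 CPM in depleted BafA1, 3.09, 2.57 and 3.22 CPM in depleted vehicle, 6.11, 5.68 and 3.53 CPM in rich BafA1 and 13.2, 10.2 and 13.0 CPM in rich vehicle. In both depleted groups LYAR was at 3.25 CPM or less and its depletion value was -2.03, SE 0.25, adjusted p = 6.84e-05, a level 0.245 times that of rich vehicle. NOLC1, a chaperone of snoRNPs, had 95.2, 97.1 and 87.5 CPM in depleted BafA1, 69.6, 72.0 and 66.7 CPM in depleted vehicle, 111, 142 and 75.8 CPM in rich BafA1 and 231, 214 and 164 CPM in rich vehicle. DDX21, a helicase that links polymerase I and II transcription of ribosome genes, had 586, 542 and 632 CPM in depleted BafA1, 354, 364 and 373 CPM in depleted vehicle, 562, 567 and 399 CPM in rich BafA1 and 1253, 918 and 788 CPM in rich vehicle. In NOLC1 and DDX21 depleted vehicle was lowest in every library, depleted BafA1 lay above it, and the interactions were 1.31 and 1.64. MYBBP1A, a nucleolar protein that restrains ribosomal RNA synthesis, had 45.3, 51.8 and 46.9 CPM in depleted BafA1, 23.9, 29.3 and 23.6 CPM in depleted vehicle, 38.8, 47.6 and 28.1 CPM in rich BafA1 and 44.3, 80.8 and 52.4 CPM in rich vehicle. BafA1 in depleted medium raised MYBBP1A (log2 fold change 0.91, SE 0.22, adjusted p = 0.0156) to the range of rich vehicle. NPM1, the abundant nucleolar histone chaperone, had 625, 520.3 and 883 CPM in depleted BafA1, 817, 639.6 and 882 CPM in depleted vehicle, 797, 679 and 789 CPM in rich BafA1 and 922, 595 and 967 CPM in rich vehicle. NPM1 overlapped in all 4 groups and was called in no comparison, with a depletion value of -0.09, SE 0.23. NCL, the other abundant nucleolar phosphoprotein, fell in depletion (log2 fold change -1.01, SE 0.17, adjusted p = 0.000409) and with BafA1 in rich medium (log2 fold change -0.68, SE 0.16, adjusted p = 0.0172).

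The 2 single treatments were also set against each other. In rich BafA1 against depleted vehicle, BOP1 alone was called higher and none lower (19 higher and 0 lower at an unadjusted p under 0.05, and 6 and 0 by DESeq2), where 3.14% of all tested genes were called higher and 0.875% lower, and the median log2 fold change was 0.28 over the 56 genes and -0.03 over all genes. The log2 fold change was above 0 in 49 of the 56 genes. The number called higher was 18 without rich vehicle replicate 1 and rich BafA1 replicate 3 together. Over all genes 1856 were then called higher and 1604 lower, against 566 and 158 with all libraries. BOP1 lost its call without either of the other 2 rich BafA1 libraries or without any 1 of the depleted libraries, so this comparison does not show that the treatments act alike.

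Both treatments together were set against rich vehicle. In depleted BafA1 against rich vehicle, 33 of the 56 genes fell and 3 rose (TAF1D, NOB1 and MPHOSPH10), where 21.6% of all tested genes fell and 21.6% rose. The median log2 fold change was -0.46, against -1.56 for the sum of depletion and BafA1 in rich medium, a gap that is the interaction in another form. LYAR (-2.08), UTP20 (-1.56) and NHP2 (-1.43) were lowest and TAF1D (1.30) highest. Under BafA1, depletion lowered 4 of the 56 genes (NHP2, LYAR, FBL and NCL) and raised 7 (TAF1D, RRP12, GNL3, MPHOSPH10, GNL2, POLR1B and NOP58), where 13.6% of all tested genes fell and 10.5% rose. Those counts depended on the libraries: without rich BafA1 replicate 3, 8 genes fell and 4 rose, and without its replicate 1 or 2, 1 fell and 4 rose. Without rich BafA1 replicate 3 and rich vehicle replicate 1 together, 15 fell and 7 rose. Without depleted BafA1 replicate 1 or 2, 1 fell, and 4 rose without replicate 1 or 3. Over all tested genes 2459 fell and 1893 rose with all libraries, and 2534 and 2047 without rich BafA1 replicate 3. The numbers were 1690 and 993 without its replicate 1 and 1455 and 891 without its replicate 2. They were 3093 and 2912 without its replicate 3 and rich vehicle replicate 1 together. Without depleted BafA1 replicate 1, 2 or 3 they were 1934 and 1381, 1627 and 1150, and 1763 and 1270.

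The highest mean level among the 4 groups was that of rich vehicle in 45 genes and that of depleted BafA1 in 8 (TAF1D, RRP12, MPHOSPH10, GNL2, GNL3, PES1, IMP4 and NOP14). The lowest mean level was that of depleted vehicle in 39 genes and that of depleted BafA1 in 13. These 13 were POLR1A, POLR1E, UBTF, NOP56, FBL, NHP2, UTP20, HEATR1, BYSL, NIP7, LYAR, NCL and NPM1. The groups with the highest and lowest mean were not counted over all tested genes. Whether this order is particular to the listed genes was therefore not tested.

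Genes with and without an E-box in the promoter window had medians in depletion of -0.92 for the 23 genes with one and -0.93 for the 23 without. With BafA1 in depleted medium the medians were 0.43 with an E-box and 0.05 without, and 6 and 3 genes rose. In the interaction the medians were 1.04 and 0.65, and 14 and 8 genes were called. The ranges overlapped widely, at 0.12 to 1.64 with an E-box and -1.27 to 1.47 without. In depletion 18 of the 23 genes with an E-box and 18 of the 23 without were called lower. The 3 genes that rose in depletion, WDR74, NOB1 and TAF1D, had no E-box in the window. The 10 genes without a promoter entry had an interaction median of 1.25, and these medians carry no test.

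**Figure D5:**
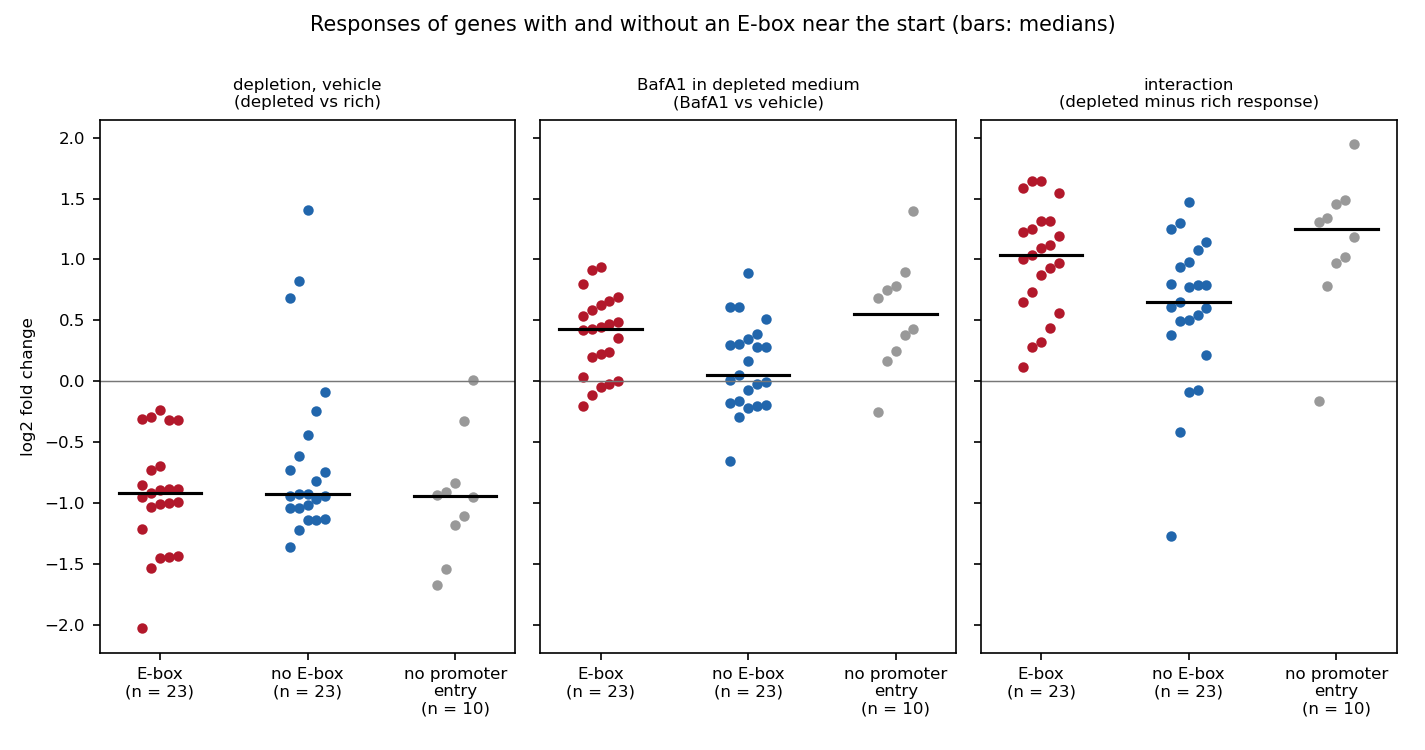
Points are the 56 genes, grouped by an E-box in the window of 250 bases before to 50 bases after a transcript start, with the fitted log2 fold change on the y axis and black bars at the medians. The medians are -0.92 with an E-box and -0.93 without in depletion, and lie further apart in BafA1 in depleted medium (0.43 and 0.05) and in the interaction (1.04 and 0.65), with wide overlap.

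The introns of several of these genes carry small nucleolar RNAs, the guides of the same snoRNPs. In the annotation 33 snoRNA genes lie inside 8 of the 56 genes on the same strand, and 29 of them were named in the tables. Of those, 22 had 0 reads in all libraries and 3 passed the low-count filter, SNORA8, SNORA18 and SNORA40, all inside TAF1D. In depletion their log2 fold changes were 1.29 for SNORA8, 1.82 for SNORA18 and -0.29 for SNORA40, and none was called in any comparison (lowest adjusted p = 0.103). In depleted vehicle replicates 1 to 3, SNORA8 had 0.853, 5.33 and 0.487 CPM and SNORA18 had 0.589, 3.80 and 0.703 CPM. Depleted vehicle replicate 2 was the highest library for both, as it was for WDR74. For TAF1D itself that library was the lowest of the depleted vehicle group. Reads of these snoRNAs and of TAF1D may not have been separable, which was not tested.

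A wider list of 96 other ribosome biogenesis genes, all tested, was counted in the same way. In depletion 63 fell and 3 rose (median -0.65), where 15.4% and 15.5% of all tested genes did. With BafA1 in rich medium 31 fell and 2 rose (median -0.42), beside 4.78% and 6.15% of all genes. With BafA1 in depleted medium none fell and 9 rose (median 0.22), beside 5.91% and 5.5% of all genes. In the interaction 31 were called positive and 1 negative (median 0.66), beside 2.35% and 3.83% of all genes. By role, depletion lowered 5 of 9 polymerase I genes, 7 of 9 snoRNP genes, 22 of 31 processome genes, 4 of 6 late 40S genes and 25 of 41 large-subunit genes. POLR1G, a polymerase I subunit, had 7.99, 7.45 and 9.09 CPM in depleted BafA1, 5.97, 6.39 and 7.63 CPM in depleted vehicle, 11.97, 17.4 and 8.21 CPM in rich BafA1 and 32.6, 27.0 and 31.6 CPM in rich vehicle. RUVBL1, an ATPase of snoRNP assembly, had 17.6, 16.3 and 18.1 CPM in depleted BafA1, 20.7, 19.2 and 22.6 CPM in depleted vehicle, 27.1, 33.8 and 24.2 CPM in rich BafA1 and 61.2, 54.5 and 63.8 CPM in rich vehicle. Both were lower in every depleted vehicle library than in any rich vehicle library, with depletion values of -2.19 and -1.52. NOP53, a 60S assembly factor, had 106, 83.7 and 131 CPM in depleted BafA1, 121, 93.8 and 140.5 CPM in depleted vehicle, 78.9, 88.3 and 123 CPM in rich BafA1 and 39.7, 36.4 and 57.4 CPM in rich vehicle. POLR1D, a subunit shared with RNA polymerase III, had 94.9, 82.5 and 120.4 CPM in depleted BafA1, 108, 86.6 and 140.3 CPM in depleted vehicle, 91.5, 80.1 and 119 CPM in rich BafA1 and 71.7, 43.1 and 86.0 CPM in rich vehicle. NOP53 rose in depletion (log2 fold change 1.41, SE 0.23, adjusted p = 0.000409) and with BafA1 in rich medium (log2 fold change 1.12, SE 0.23, adjusted p = 0.00696) and had the 1 negative interaction (-1.26), and POLR1D rose in depletion (log2 fold change 0.74, SE 0.25, adjusted p = 0.0337).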

How the data were processed

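Total RNA of 12 Caco-2 samples was made into stranded libraries after removal of ribosomal RNA, per the labels' protocols. The submitters' processing notes name DRAGEN and GRCh38, and the annotation release and strand setting are not named in any source used here. The authors deposited estimated counts per gene (5.08% of values not whole) and TPM, with gene and effective lengths, per the file headers, for 54553 genes a library. They also deposited a series-wide table of whole-number counts for 13518 genes, which lay within 0.5 of the estimated counts.

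Estimated counts were rounded to whole numbers, filtered with filterByExpr (minimum count 10, total 15), scaled by TMM and fitted in edgeR 4.0.16 (R 4.3.3, limma 3.58.1) with the robust quasi-likelihood test. One fit held the 12 libraries in 4 groups of 3, with 8 residual degrees of freedom and no replicate block. P-values were adjusted by Benjamini-Hochberg over 18047 genes and called under 0.05. An SE is the log2 fold change over the root of its F value. The 7 comparisons include that of both treatments with rich vehicle, which was added after seeing the data, as were the counts called higher. The alternatives were 20 other settings, DESeq2 1.42.0 among them. The fit was tested on simulated data.

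TPM was used for cell type markers only. Libraries held 12969814 to 51649213 reads.

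The members and lists were chosen with earlier results of these data known. Values in every library are given, in each role, for the 2 genes with the lowest and the 1 with the highest depletion value, for every gene called higher in a comparison of 2 of the 4 groups or called in the interaction, and for the ends of the BafA1 response in rich medium. Of the wider list, the 2 lowest and the 2 highest in depletion are given. Motifs were sought on both strands of RefSeq windows, and windows of other genes were those of tested protein-coding genes.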

Additional observations from a re-analysis of the deposited data

Results flagged for a closer look

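The response to BafA1 differed between the 2 media in 30 of the 56 genes by the test of that difference, the depleted-medium log2 fold change minus the rich-medium one (edgeR's quasi-likelihood test, adjusted p under 0.05). Of all tested genes, 2.35% were called positive and 3.83% negative in this test, and 5.5% were called higher with BafA1 in depleted medium. In each of the 30 the difference was positive, and 13 of them were also called higher with BafA1 in depleted medium. A positive difference thus did not always come with a called rise. Among the 17 genes that kept the call in all 19 other settings run for it, the difference was 1.48 for POLR1B, 1.46 for NOP58, 1.49 for DCAF13, 1.25 for UTP15, 1.10 for WDR43 and 0.93 for WDR75. It was 1.25 for RRP9, 0.98 for DDX10, 1.95 for RRP12, 1.64 for PNO1, 1.08 for TSR1 and 1.34 for DDX18 in the next 6 of them, and 1.32 for GNL2, 1.30 for BRIX1, 1.31 for NOLC1, 1.64 for DDX21 and 1.55 for MYBBP1A in the last 5. The 13 genes that lost the call in at least 1 setting had differences of 0.79 for NOP56, 0.79 for DKC1, 1.59 for GAR1, 1.23 for UTP20, 0.93 for UTP4, 1.12 for UTP18 and 1.02 for MPHOSPH10, and of 0.97 for NAT10, 1.31 for LTV1, 1.19 for BOP1, 0.87 for NOP2, 0.97 for RRP1B and 1.04 for GNL3.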

How the results depend on the processing

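Of the 20 other settings, none reversed a called log2 fold change of the 56 genes. In depletion the number called lower (44) was 42 to 46 in all settings, while the number called higher (3) was 1 without the 2 libraries that stood apart and 1 to 3 with 1 library left out. For BafA1 in rich medium the number lower (32) was 5 in a fit of the libraries compared alone, 14 without the 2 libraries and 14 to 32 with 1 library left out. For BafA1 in depleted medium the number higher (14) was 4 to 19 with 1 library left out. For depletion under BafA1 the number lower (4) was 8 in the libraries compared alone, 15 without the 2 libraries and 1 to 8 with 1 left out, and the number higher (7) was 4 to 7. For the interaction the number positive (30) was 17 to 33 with 1 library left out, and a fit of the libraries compared alone is the same fit. For rich BafA1 against depleted vehicle the number higher (1) was 6 by DESeq2's test, 6 without the low-count filter, 6 in the libraries compared alone, 5 with a replicate block, 18 without the 2 libraries and 0 to 10 with 1 left out, and the number lower (0) was 1 (NOB1) without the 2 libraries. For both treatments against rich vehicle the number lower (33) was 24 to 34 in all settings, and the number higher (3) was 5 without the low-count filter and 2 to 3 with 1 library left out. Without the low-count filter WDR74 was called in the comparisons that had 0, with 1 higher for BafA1 in rich medium, 1 lower for BafA1 in depleted medium, 1 negative in the interaction and 1 lower for rich BafA1 against depleted vehicle. The number of calls over all tested genes also changed with the settings, and the cause of these changes was not tested. Replicate numbers were not taken to pair the libraries. In 18 same-numbered pairs the correlation of deviations from the group means was -0.0812 to 0.294 (median 0.0724), and it was over 0.1 in 6, all between replicates 2 or between replicates 3 of rich vehicle, depleted vehicle and depleted BafA1 (0.209 to 0.294). Pairs of a replicate 2 with a replicate 3 among those groups had -0.298 to -0.167. Pairs numbered 1 and pairs with rich BafA1 did not pass 0.1. Beyond the count of 5 named above, the replicate block moved no count by more than 1.5 times. A gene on the opposite strand overlaps 30 of the 56 genes, and 16 have copies with pseudogene names, which held 8.82% to 16.7% of the count of RRN3, 0.589% to 4.38% of that of DCAF13 and 1.67% to 2.41% of that of NPM1. The smallest library, rich vehicle replicate 1 with 12969814 reads, limits the precision of rich vehicle.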
